A study of Mus musculus with 15 samples.

Results

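The injection of a control vector into the substantia nigra was compared with the uninjected nigra of the other side, in C57Bl/6J mice. The injected side received AAV-hSYN1-GFP, an adeno-associated virus that carries green fluorescent protein behind the human synapsin 1 promoter, at 1e10 vector genomes, and both sides were dissected 3 weeks later. The comparison holds 4 injected libraries, from mice 1 to 4, and 5 uninjected libraries, from mice 1 to 5, which are 9 of the 15 libraries of the series. They were chosen by their labels, and mouse 5 has no injected library here. The other 6 libraries are the injected and uninjected sides of 3 other C57Bl/6J mice that received AAV-hSYN1-miR-181 at 1.65e10 vector genomes. No nigra injected with fluid alone is analysed here, so the needle, the capsid, the vector genome and GFP itself cannot be told apart. The GFP transcript is not analysed here, so delivery was not checked by its level.

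The synapsin promoter limits transgene expression mainly to neurons, but the capsid and its DNA can reach glia as well. Microglia, the resident macrophages of the brain, sense damage and foreign nucleic acid through pattern receptors, and they answer with complement, Fc receptors, lysosomal enzymes and antigen-presenting molecules. Interferons act through their receptors and the IRF factors to raise genes for MHC class I, the immunoproteasome and antiviral proteins, and interferon gamma also raises MHC class II. The nigra is densely populated with microglia and is the home of the dopamine neurons whose loss underlies Parkinson disease.

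The deposited values summed to between 970505 and 1040288 per library, and each library had from 15022 to 15283 genes at a value of 1 or more. Read depth is unknown, because the table holds no counts. Pearson's r of log2 values between libraries of one side lay between 0.961 and 0.979 across genes, which are not independent replicates. Both libraries of mouse 1 stood apart in pituitary genes: the summed value of 10 prolactin, growth hormone and other pituitary transcripts was 50166 on its uninjected side and 2454 on its injected side, against 18.8 or less in the other 7 libraries. Dopamine neuron markers (Th, Slc6a3 and Slc18a2) were at or above 98.5 in all 9 libraries. Values are given below in mouse order, and a called gene is one with a Benjamini-Hochberg adjusted p below 0.05 in limma, a linear model with a shared estimate of variance, on log2(value + 0.5).

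Of 15274 genes with a mean value of at least 1, 204 were called higher on the injected side (1.34%) and 2 were called lower (0.0131%). Of the higher genes, 123 rose by more than 1 on the log2 scale, 45 by more than 2 and 17 by less than 0.5, and the median was 1.17 against 0.005 over all genes tested. These folds are on the log2(value + 0.5) scale, which understates the change of low genes. A gene that is low on the uninjected side can reach the mean of 1 through its injected values. Counts and medians of gene groups given below are partly set by this filter where they hold such genes. All 204 had the same sign in each of the 4 mice, and in 202 all injected libraries lay above all uninjected ones, where 502 genes of all tested (3.29%) were so placed and 153 (1.00%) were placed the other way. The 204 genes were chosen on these same libraries, so both counts largely follow from that choice and are no further support. At an unadjusted p below 0.05, 1044 genes were higher (6.84%) and 410 lower (2.68%), and 51.8% of all genes had a positive change. With mouse as a block, 122 genes were called higher, 108 of them among the 204. Without both libraries of mouse 1, 141 were, and 126 of these were among the 204. Single libraries set how many genes passed. The number called higher was 123, 126, 203 and 112 without the injected library of mouse 1, 2, 3 or 4. It was 251, 132, 114, 148 and 108 with the uninjected side of mouse 1, 2, 3, 4 or 5 left out. Of the 204 genes, 92 passed in each of the 9 fits that left out 1 library.

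**Figure D1:**
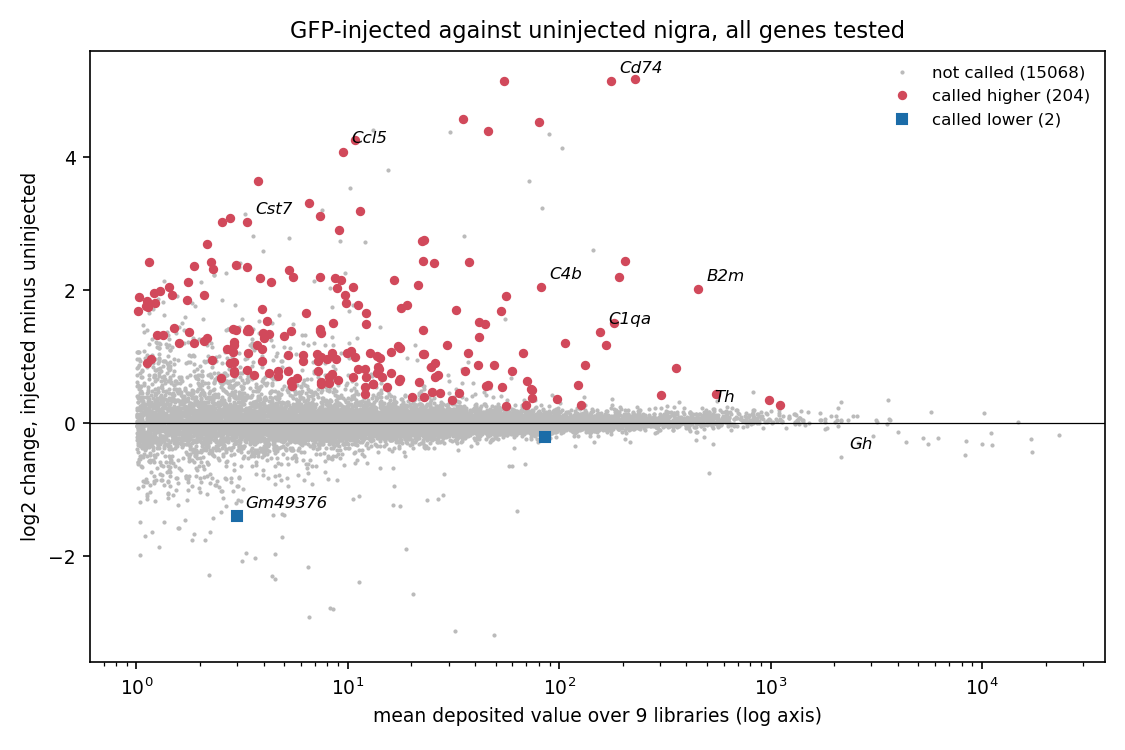
Each point is 1 of the 15274 genes tested, with the mean deposited value of its 9 libraries on a log axis and the log2 change of the injected against the uninjected side on the vertical axis. Of the 204 genes called higher 45 lie above a change of 2, where genes that were not called lie too, and the 2 called lower are single points below 0.

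Genes of antigen presentation were among those with the largest changes. Of 16 genes of MHC class I and its peptide loading, 11 were called higher (list median log2 change 1.72), and of 10 MHC class II genes 7 were (median 1.84). H2-Q5, annotated as a polymorphic pseudogene of class I at chr17:35394126-35397800 on GRCm38, had the smallest adjusted p of all genes. Its values were 10.3, 8.22, 11.1 and 9.95 on the injected side and 2.07, 1.75, 1.44, 1.32 and 1.52 on the uninjected side (log2 change 2.30 ± 0.14 SE, adjusted p = 0.000157). The class I genes H2-Q4 to H2-Q7 are near-identical copies, so reads may have been split among them and each copy's own level is uncertain. B2m, the invariant light chain shared by class I molecules, stood at 1161, 585, 755 and 638 on the injected side and at 233, 174, 169, 186 and 179 on the uninjected side (log2 change 2.01 ± 0.18 SE, adjusted p = 0.000597). The lowest injected library of B2m lay far above the highest uninjected one, and mouse 1 was the highest on both sides.

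Genes that assist peptide loading were called as well as those of the presenting molecules. H2-DMa, a chaperone that helps load peptide on class II, had 29.2, 24.4, 20.4 and 27.1 on the injected side and 12.7, 12.2, 9.29, 10.8 and 10.1 on the uninjected side (log2 change 1.16 ± 0.12 SE, adjusted p = 0.00112). H2-Oa, which restrains that chaperone, also rose, from a mean of 0.921 ± 0.651 (SD, n = 5) to 6.35 ± 1.89 (n = 4; log2 change 2.35 ± 0.35 SE, adjusted p = 0.00992, and 0.0527 with mouse as a block). Ciita, the master activator of class II transcription, was not called, at 2.67, 1.48, 2.23 and 2.18 against 1.16, 1.39, 1.34, 1.35 and 0.539 (log2 change 0.69 ± 0.24 SE, adjusted p = 0.324), although its 4 injected libraries lay above all 5 uninjected ones. Among uninjected libraries that of mouse 1 was the highest for class II, with a list sum of 73.9 against 29.8 to 33.8 in the other 4 and 371 to 1072 on the injected side. That library also held the most pituitary RNA, and the part of this in its class II level was not tested.

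Of the 5 immunoproteasome genes, 3 were called higher (median 0.50), while in limma 0 of 14 subunits of the constitutive proteasome were, 3 of them at an unadjusted p below 0.05 (median 0.03). These 3, Psmb4, Psmb5 and Psma7, were all higher, where 6.84% of all genes were higher at such a p. Psmb8, a catalytic subunit that replaces its constitutive counterpart in cells exposed to interferon, had 43.01, 23.96, 22.7 and 28.6 on the injected side and 8.09, 6.002, 6.86, 6.19 and 3.91 on the uninjected side (log2 change 2.15 ± 0.22 SE, adjusted p = 0.00104). Psme1, a subunit of the cap that opens the proteasome, was at 95.3, 85.9, 84.03 and 89.3 against 64.9, 61.2, 66.7, 59.96 and 60.8 (log2 change 0.50 ± 0.05 SE, adjusted p = 0.00104). Psmb9 rose by 2.18 ± 0.36 SE (adjusted p = 0.0161), a call that did not hold without the injected library of mouse 4 or the uninjected library of mouse 3 (highest adjusted p = 0.0606). For Psmb5, the constitutive partner of Psmb8, the log2 change was 0.12 ± 0.05 SE (adjusted p = 0.453).

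Several of these genes carry in their promoters the letters that interferon and MHC regulators are known to read, and short stretches are printed to show them. RefSeq windows of 250 bases before to 50 after the start (GRCm38.p6) were found for 147 of the 204 higher genes and 11281 of the genes tested. Each motif was searched on both strands, and a match is a description of letters, not of binding. The interferon-stimulated response element was taken as GAAANNGAAA, the gamma-activated site as TTCNNNGAA and the MHC Y box as CTGATTGG. A gene was counted if any of its windows held the motif, so genes with several windows had more chances of a match. A response element was present in 29 of the 147 genes (19.7%), against 3.70% of the genes tested that had a window and 3.99% of all 27025 genes with a window. A gamma-activated site was present in 22 (15.0%, against 8.27% and 9.55%), and a Y box in 15 (10.2%, against 6.61% and 4.70%). In the stretches below, written 5′ to 3′ on the strand of the gene and ending at or before its RefSeq start, capitals mark the matches to the motif named for that gene, in either orientation. RefSeq and GENCODE starts can differ. The stretches of Psmb8 and Irgm1 lie inside the GENCODE positions of these genes, chr17:34197721-34201454 and chr11:48861968-48871683.

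The Y box stretches are those of H2-Eb1 at chr17:34305775-34305842, plus strand, and H2-Aa at chr17:34287837-34287904, minus strand. Response elements are shown for B2m at chr2:122147518-122147587, plus strand, Igtp at chr11:58199492-58199555, plus strand, Irgm1 at chr11:48871421-48871474, minus strand, and Isg15 at chr4:156200845-156200914, minus strand. Gamma-activated sites are shown for Psmb8 at chr17:34198068-34198136, plus strand, and Irf1 at chr11:53769894-53769962, plus strand.
H2-Eb1: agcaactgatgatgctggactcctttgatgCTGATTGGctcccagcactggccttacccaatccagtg
H2-Aa: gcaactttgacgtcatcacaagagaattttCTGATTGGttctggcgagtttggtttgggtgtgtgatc
B2m: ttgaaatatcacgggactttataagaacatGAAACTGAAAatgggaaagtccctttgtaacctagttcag
Igtp: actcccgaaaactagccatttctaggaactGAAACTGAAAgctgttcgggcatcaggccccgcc
Irgm1: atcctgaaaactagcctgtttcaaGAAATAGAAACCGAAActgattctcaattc
Isg15: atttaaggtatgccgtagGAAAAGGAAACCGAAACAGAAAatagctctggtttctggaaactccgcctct
Psmb8: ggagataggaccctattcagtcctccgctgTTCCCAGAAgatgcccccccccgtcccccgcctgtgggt
Irf1: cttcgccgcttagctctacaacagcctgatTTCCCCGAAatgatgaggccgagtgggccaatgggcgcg
The match begins 62 bases before the start in H2-Eb1 and 51 before it in H2-Aa, both genes of class II chains. In Irgm1 and Isg15 several matches overlap, so that the GAAA units run on at even spacing.

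Part of the interferon response genes were called higher. Of 20 genes of the interferon gamma response, 13 were called higher (median 1.51), and of 29 of the type I response 12 were (median 1.02). Igtp, an immunity-related GTPase whose response element is printed above, had 79.8, 27.6, 23.98 and 44.7 on the injected side and 6.38, 4.01, 3.61, 12.9 and 3.72 on the uninjected side (log2 change 2.75 ± 0.42 SE, adjusted p = 0.0104). Its injected libraries all lay above the uninjected ones, and on both sides the spread between mice was wide. Irf8, a transcription factor of macrophages and microglia, was at 15.4, 11.1, 8.499 and 11.4 against 4.09, 3.87, 4.86, 3.24 and 3.98 (log2 change 1.41 ± 0.16 SE, adjusted p = 0.00219).

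Usp18, a brake on type I interferon signalling, rose from 2.85 ± 0.68 (SD, n = 5) to 10.7 ± 5.46 (n = 4; log2 change 1.66 ± 0.26 SE, adjusted p = 0.0133). Isg15, a ubiquitin-like antiviral protein, had 38.1, 11.8, 17.3 and 13.8 against 7.08, 4.05, 5.76, 8.02 and 3.45 (log2 change 1.66 ± 0.34 SE, adjusted p = 0.04502, and 0.0682 with mouse as a block), and its call held in none of the 9 fits that left out 1 library (highest adjusted p = 0.114). Mouse 1 had the highest injected value of Isg15, Igtp, Irf8 and Usp18. The type I count fell from 12 to 4 without the injected library of mouse 4, to 5, 4, 7 and 4 without the uninjected library of mouse 2, 3, 4 or 5, and the gamma count fell from 13 to 7 without the injected library of mouse 4 and to 8 with the uninjected side of mouse 3 or 5 left out. Of the interferon genes looked at, Ifng and Ifnb1 were listed at 0 in all 9 libraries.

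Of 13 sensors of nucleic acid and microbial patterns, 3 were called higher (median 0.63). Unc93b1, which escorts Toll-like receptors to endosomes, stood at 40.5, 35.8, 31.2 and 32.02 on the injected side and 20.4, 19.4, 18.1, 16.2 and 17.9 on the uninjected side (log2 change 0.90 ± 0.09 SE, adjusted p = 0.00104). Tlr2, a receptor at the cell surface, was at 4.89, 4.28, 3.28 and 3.73 against 2.02, 1.699, 1.18, 1.69 and 1.42 (log2 change 1.11 ± 0.17 SE, adjusted p = 0.0104), and Ifi204, a DNA sensor, rose by 1.93 ± 0.28 SE (adjusted p = 0.00851). In these 3 genes no injected library overlapped an uninjected one. Tlr9, which reads unmethylated CpG DNA in endosomes, was not called, at 2.24, 1.09, 1.698 and 2.18 against 1.19, 1.13, 0.579, 0.707 and 0.655 (log2 change 0.76 ± 0.24 SE, adjusted p = 0.274), and the adaptor Mavs of the RNA sensors had a log2 change of 0.06 ± 0.08 SE (adjusted p = 0.863).

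The complement system, a cascade of plasma and tissue proteins that tags debris and synapses for removal, was represented among the higher genes by its early components and its receptors. Of 16 genes tested, 9 were called higher (median 0.95). C1qa, a chain of the recognition molecule of the classical pathway that microglia make in the brain, stood at 261, 246, 188 and 255 on the injected side and at 113, 96.4, 78.8, 81.7 and 86.9 on the uninjected side (log2 change 1.37 ± 0.12 SE, adjusted p = 0.000597). C1qc was at 183, 156, 128 and 155 against 78.3, 69.6, 64.6, 59.8 and 62.1 (log2 change 1.21 ± 0.10 SE, adjusted p = 0.000546). The lowest injected library of each of these chains, that of mouse 3, was well above the highest uninjected one. C1qb, the remaining chain, rose by 1.18 ± 0.13 SE (adjusted p = 0.00171). In a bulk sample, more microglia and more RNA per microglial cell cannot be told apart.

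C4b, the next component of the classical pathway (chr17:34728380-34743882), had 205, 127, 116 and 119 on the injected side and 47.4, 34.8, 31.6, 26.2 and 29.5 on the uninjected side (log2 change 2.04 ± 0.20 SE, adjusted p = 0.000932). C3, at which the pathways of complement meet, was at 10.9, 16.5, 8.18 and 18.3 against 4.09, 2.79, 2.78, 1.34 and 1.71 (log2 change 2.20 ± 0.30 SE, adjusted p = 0.005798, and 0.074 with mouse as a block). Mouse 1 was the highest of the injected libraries for C4b, but for C3 mice 2 and 4 were the highest and mouse 3 the lowest. Itgb2, the beta chain of complement receptor 3, rose from 4.21 ± 0.566 (SD, n = 5) to 11.6 ± 1.67 (n = 4; log2 change 1.36 ± 0.13 SE, adjusted p = 0.000848), and Itgam, its alpha chain, by 0.59 ± 0.09 SE (adjusted p = 0.00992). Serping1, the inhibitor of the first component, also rose (log2 change 1.05 ± 0.15 SE, adjusted p = 0.00826). The regulators Cd55 and Cd59a were not called, with log2 changes of -0.06 and 0.01, nor were C2 and Cfb, at 0.41 and 0.28.

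**Figure D2:**
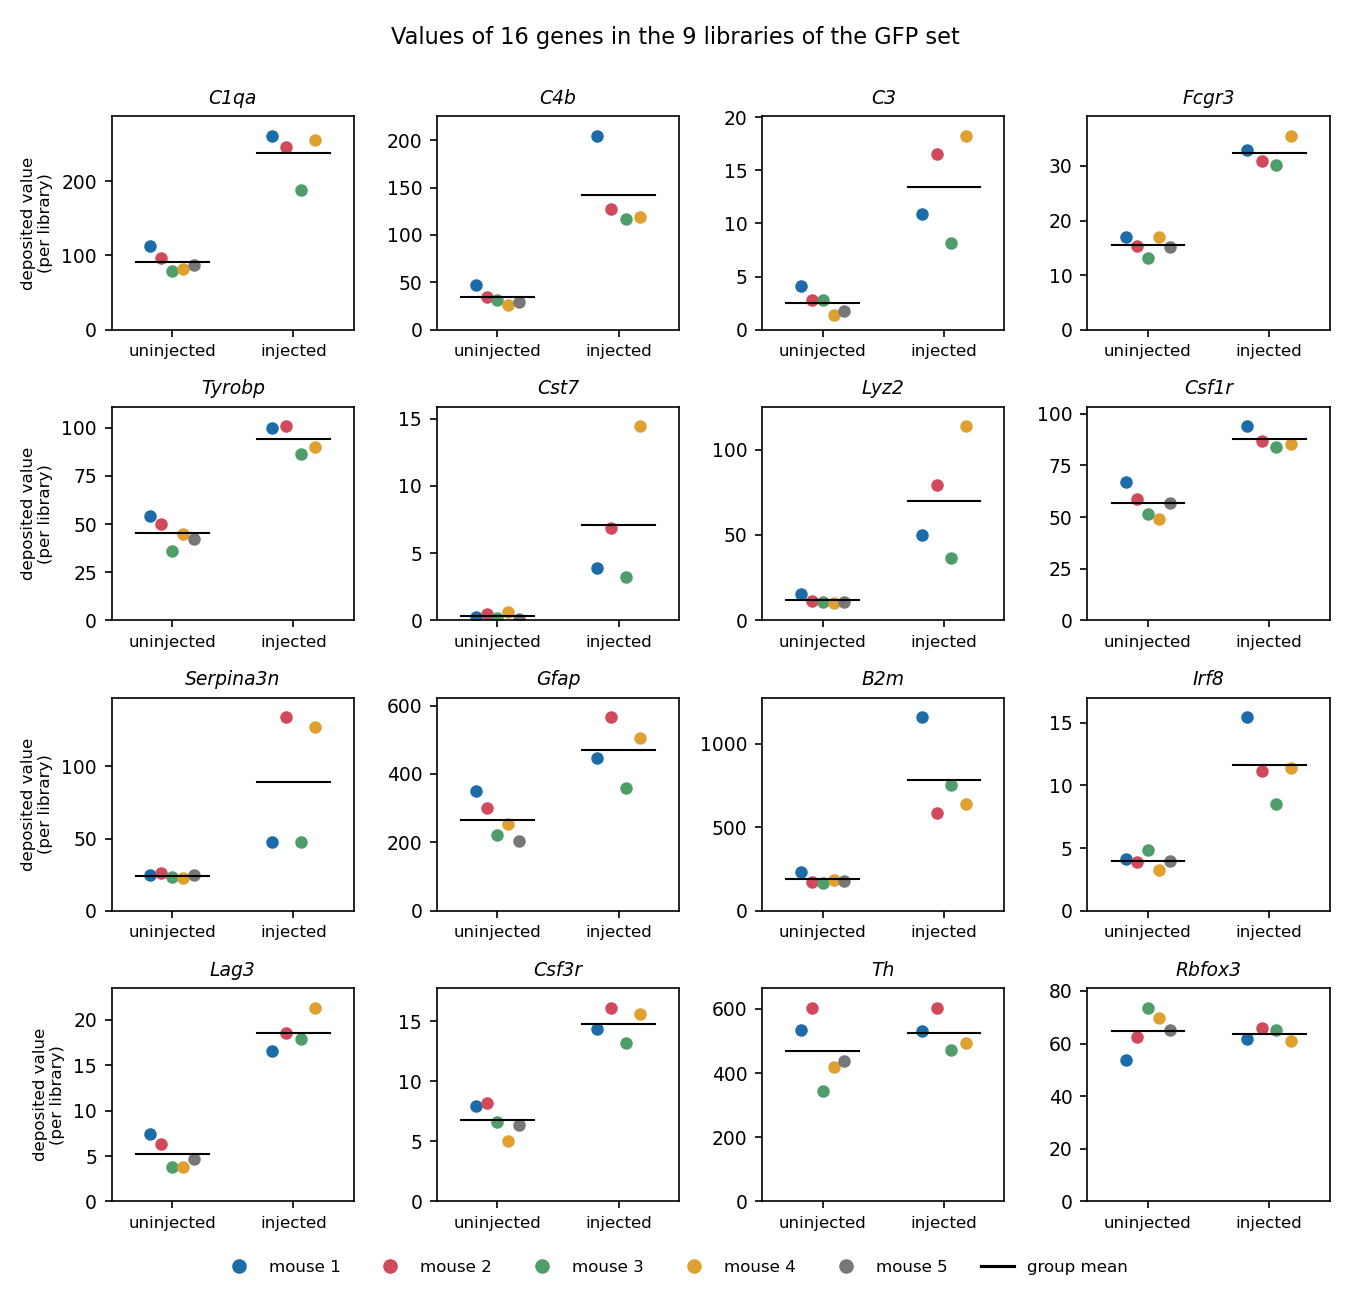
Deposited values of 16 genes in the 9 libraries, with uninjected sides left and injected sides right in each panel, points coloured by mouse, bars at group means and axes from 0. Injected points lie above all uninjected points in the panels of complement, Fc receptor, microglial and MHC genes, while those of Th and Rbfox3 overlap.

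Receptors for antibody held called genes as well. Of 6 Fc receptor genes, 5 were called higher (median 1.19). Fcgr3, a low-affinity activating receptor for IgG, was at 32.8, 30.9, 30.2 and 35.5 on the injected side and 16.9, 15.3, 13.1, 17.1 and 15.2 on the uninjected side (log2 change 1.04 ± 0.08 SE, adjusted p = 0.000401). Fcgr2b, the inhibitory member, stood at 12.8, 18.2, 8.45 and 15.6 against 4.67, 4.04, 4.71, 3.996 and 4.21 (log2 change 1.51 ± 0.18 SE, adjusted p = 0.00303). Fcer1g, the signalling chain shared by the activating receptors, was at 61.5, 49.2, 41.4 and 57.4 against 25.7, 26.8, 17.1, 28.5 and 26.5 (log2 change 1.06 ± 0.16 SE, adjusted p = 0.00904). None of these 3 overlapped between the sides, and both the activating and the inhibitory receptors rose. Fcgr4 and Fcgr1 rose by 1.85 ± 0.28 SE and 1.31 ± 0.26 SE, and the call of Fcgr1 held in 3 of the 9 fits that each left out 1 library (highest adjusted p = 0.126) and not with mouse as a block (adjusted p = 0.07097). Fcgrt, the neonatal Fc receptor that recycles IgG and is not confined to phagocytes, was not called (log2 change 0.23 ± 0.10 SE, adjusted p = 0.513). The count was 3 of 6 without both libraries of mouse 1.

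Called genes were found among markers of both resting and activated microglia. Of 14 genes typical of resting microglia, 5 were called higher (median 0.37), and of 23 genes that rise in microglia around damage and plaques 13 were (median 0.78). Aif1, the calcium-binding protein known as Iba1, had 30.1, 27.99, 20.2 and 23.9 on the injected side and 12.6, 11.6, 10.6, 11.01 and 10.8 on the uninjected side (log2 change 1.13 ± 0.11 SE, adjusted p = 0.000945). Csf1r, the receptor that keeps microglia alive, was at 93.96, 86.98, 84.02 and 85.5 against 66.8, 58.7, 51.5, 49.2 and 56.9 (log2 change 0.63 ± 0.08 SE, adjusted p = 0.00457). Tmem119, a marker that separates microglia from other macrophages, was at 38.2, 29.5, 32.4 and 31.1 against 23.98, 20.2, 17.5, 17.3 and 21.4 (log2 change 0.70 ± 0.11 SE, adjusted p = 0.0113). All 3 rose without overlap, the first by more than the other 2. P2ry12, the purine receptor of resting microglia, overlapped, at 31.4, 23.4, 29.8 and 25.6 against 25.5, 24.4, 23.1, 21.1 and 31.7 (log2 change 0.13 ± 0.12 SE, adjusted p = 0.783), and Cx3cr1, the fractalkine receptor, was not called in the fit without the block (log2 change 0.45 ± 0.12 SE, adjusted p = 0.145, and 0.0347 with mouse as a block, where it was called). With the injected side of mouse 1 or the uninjected side of mouse 5 left out, 3 of the 14 resting markers were called.

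Several genes of the damage-linked state differed widely between mice. Tyrobp, the adaptor through which the receptor TREM2 signals, stood at 100.1, 101, 86.4 and 90.01 on the injected side and 54.3, 50.1, 36.2, 44.9 and 42.2 on the uninjected side (log2 change 1.05 ± 0.11 SE, adjusted p = 0.00104). Lyz2, the lysozyme of myeloid cells, was at 49.97, 79.5, 36.2 and 114 against 15.7, 11.3, 10.5, 10.1 and 10.6 (log2 change 2.42 ± 0.28 SE, adjusted p = 0.00244). Cst7, a cystatin that inhibits lysosomal cathepsins, was at 3.87, 6.86, 3.23 and 14.4 against 0.259, 0.442, 0.146, 0.636 and 0.126 (log2 change 3.02 ± 0.39 SE, adjusted p = 0.00442). Tyrobp was nearly level across the 4 injected libraries, whereas mouse 4 had the most Lyz2 and Cst7 and mouse 3 the least of both. Trem2 rose less, by 0.85 ± 0.12 SE (adjusted p = 0.00761, and 0.0858 with mouse as a block).

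Clec7a, a receptor for fungal glucan that marks plaque-associated microglia, had 2.86, 6.86, 1.31 and 7.77 on the injected side and 0.392, 0.446, 0.556, 0.482 and 0.0981 on the uninjected side (log2 change 2.32 ± 0.43 SE, adjusted p = 0.0261, and 0.128 with mouse as a block). Gpnmb, a glycoprotein of phagocytes, was at 3.35, 10.4, 3.99 and 9.93 against 1.75, 1.58, 1.57, 1.22 and 1.53 (log2 change 1.72 ± 0.31 SE, adjusted p = 0.0249, and 0.137 with mouse as a block). In both, mice 2 and 4 were high and mice 1 and 3 low among the injected libraries, and the fits with 1 library left out kept the call of Clec7a 2 times and that of Gpnmb 3 times among 9 (highest adjusted p = 0.091 and 0.0817). Apoe, Spp1, Igf1 and Axl, which belong to the same state, were not called, with log2 changes of 0.34, 0.07, 0.18 and 0.16. With mouse as a block, 5 of the 23 genes were called.

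Some lysosomal genes rose. Of 21 cathepsin and lysosome genes 10 were called higher (median 0.27), and 6 were called without the injected library of mouse 1, 2 or 4. Ctsd, an aspartic protease of all lysosomes, stood at 636, 699.8, 594 and 665 on the injected side and 515, 514, 447, 439.5 and 470 on the uninjected side (log2 change 0.44 ± 0.06 SE, adjusted p = 0.00761). Laptm5, a lysosomal membrane protein of blood-derived and microglial cells, was at 73.3, 71.2, 52.7 and 65.8 against 40.1, 38.7, 33.01, 29.6 and 35.5 (log2 change 0.88 ± 0.11 SE, adjusted p = 0.00406). In both genes the injected values lay above all uninjected ones. Ctsb and Lamp1, general lysosomal genes, were not called (Ctsb log2 change 0.18 ± 0.04 SE, adjusted p = 0.0804; Lamp1 log2 change 0.08 ± 0.03 SE, adjusted p = 0.421).

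**Figure D3:**
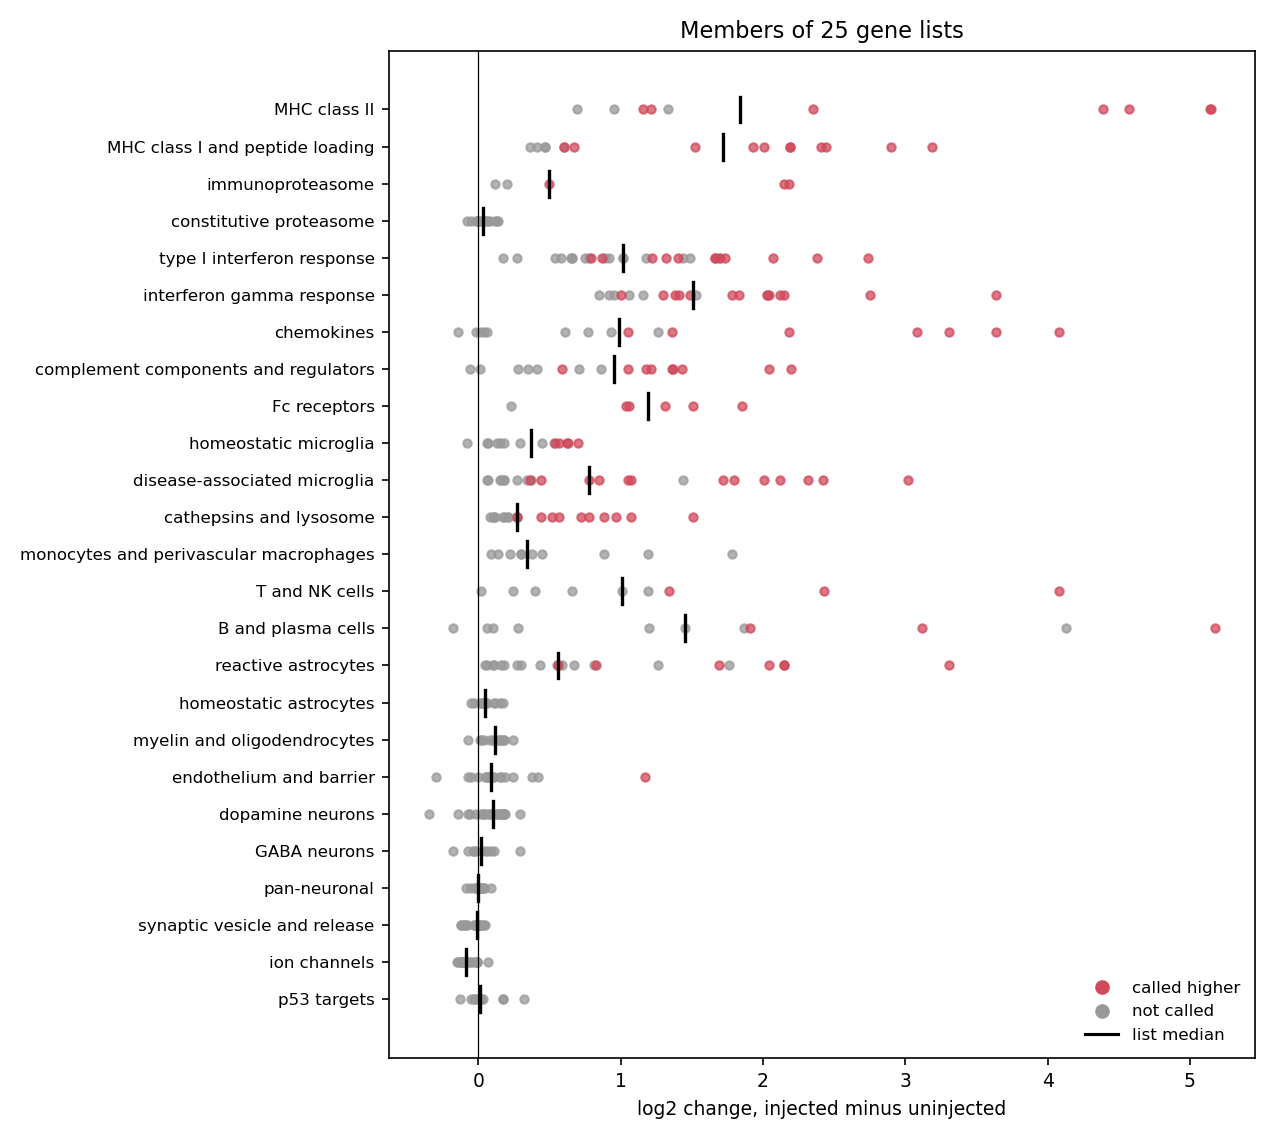
Log2 change of each tested member of 25 gene lists, injected against uninjected, with a bar at each list's median. MHC, interferon, complement and Fc receptor members lie mostly above 0 with medians from 0.95 to 1.84, while neuronal, myelin and resting astrocyte members gather around 0.

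Some markers of reactive astrocytes rose. Of 23 genes of reactive astrocytes, 7 were called higher (median 0.56), and 4 of these, C4b, Psmb8, Cxcl10 and Gbp2, are also complement or interferon genes. Of 15 genes of resting astrocytes 0 were called in limma, and 2 had an unadjusted p below 0.05 (median 0.05). These 2, Aqp4 and Aldh1l1, were higher, where 6.84% of all genes were higher at such a p. Gfap, the intermediate filament protein of astrocytes, had 448, 567, 358 and 506 on the injected side and 351, 300.4, 221, 254 and 203 on the uninjected side (log2 change 0.83 ± 0.17 SE, adjusted p = 0.0493). The sides did not overlap, but the highest uninjected library, that of mouse 1, came within reach of the lowest injected one, that of mouse 3. The call of Gfap held only in the fits without the injected library of mouse 3 or the uninjected library of mouse 1 (highest adjusted p over the 9 fits = 0.152).

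Serpina3n, a secreted protease inhibitor of reactive astrocytes, was at 47.9, 134, 47.9 and 127 on the injected side and 24.6, 26, 23.3, 22.5 and 24.9 on the uninjected side (log2 change 1.69 ± 0.31 SE, adjusted p = 0.0249, and 0.0841 with mouse as a block). The uninjected libraries were nearly equal, while mice 2 and 4 reached more than the other 2 injected mice by a wide margin. Vim, another filament gene, rose by 0.56 ± 0.10 SE (adjusted p = 0.0274, and 0.0646 with mouse as a block). Both calls held in 3 of the 9 fits that left out 1 library (highest adjusted p = 0.0743 for Serpina3n and 0.0899 for Vim). Aldh1l1, an enzyme of all astrocytes, and the water channel Aqp4 were not called (Aldh1l1 log2 change 0.12 ± 0.05 SE, adjusted p = 0.513; Aqp4 log2 change 0.17 ± 0.07 SE, adjusted p = 0.435). The count of reactive genes was 4 of 23 without the injected library of mouse 2 or the uninjected library of mouse 2, 3 or 5, and 3 without the injected library of mouse 4.

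Some chemokine, cytokine and cytokine receptor genes rose. Of 16 chemokine genes 7 were called higher (median 0.99), and of 17 cytokine and receptor genes 4 were (median 0.36). Ccl5, Ccl8, Cxcl9 and Cxcl10 had uninjected means of 0.784, 0.337, 0.1485 and 0.714, so they reached the filter through their injected values. The chemokine count and median are therefore partly set by the filter. Ccl8, which attracts monocytes and T cells, had 7.25, 7.87, 4.59 and 3.58 on the injected side and 0.306, 0, 1.38, 0 and 0 on the uninjected side (log2 change 3.08 ± 0.42 SE, adjusted p = 0.00617, and 0.0527 with mouse as a block). Tnfrsf1b, a receptor for tumour necrosis factor, was at 5.23, 6.18, 5.18 and 6.02 against 3.08, 3.12, 2.96, 2.89 and 3.64 (log2 change 0.76 ± 0.11 SE, adjusted p = 0.00826, and 0.0564 with mouse as a block). Neither gene overlapped between the sides. Constitutive chemokines of the brain were not called: Cx3cl1 of neurons and Cxcl12 had log2 changes of -0.02 and 0.01 (adjusted p = 0.952 and 0.987). With mouse as a block 2 chemokines and 1 cytokine gene were called. The chemokine count was 4 when the injected side of mouse 1 or 4, or the uninjected side of mouse 2, 3 or 5, was left out, and the cytokine count was 2 when the injected side of mouse 1, 2 or 4, or the uninjected side of mouse 2 or 4, was.

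Of 10 monocyte and perivascular macrophage genes tested 0 were called in limma, and 2 had an unadjusted p below 0.05 (median 0.34). These 2, Ly6c2 and Ms4a7, were higher, where 6.84% of all genes were higher at such a p. Ly6c2, a surface antigen of inflammatory monocytes, had 5.89, 10.3, 1.88 and 3.29 on the injected side and 0.82, 1.19, 0.687, 1.03 and 1.13 on the uninjected side (log2 change 1.78 ± 0.38 SE, adjusted p = 0.0531). Plac8, another gene of monocytes, was under the filter, with 3.89, 2.24, 0.926 and 1.43 on the injected side and 0 in all 5 uninjected libraries. The injected libraries of both genes lay above all uninjected ones. Ccr2, the receptor that brings monocytes from blood, was under the filter and not tested. It had 0.53, 0.154, 0.313 and 0.667 on the injected side and 0.228, 0.247, 0.1665, 0.0561 and 0.102 on the uninjected side. These values overlapped, with means of 0.416 and 0.16. Of 10 neutrophil genes only Csf3r, the receptor for granulocyte colony-stimulating factor, reached the filter, at 14.3, 16.1, 13.2 and 15.6 against 7.95, 8.17, 6.59, 5.02 and 6.38 (log2 change 1.08 ± 0.13 SE, adjusted p = 0.00317). Csf3r is also made by microglia, and the other 9 neutrophil genes had a mean below 1.

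Of 9 T and NK cell genes tested 3 were called higher (median 1.01). Ccl5, Cd4, Cd247 and Cd3d had uninjected means of 0.784, 0.843, 0.712 and 0.899, so their injected values brought them to the filter. The count and median of this list are therefore partly set by the filter. Trbc2, a constant segment of the T cell receptor, stood at 6.86, 6.495, 6.53 and 6.43 on the injected side and 1.61, 2.06, 2.496, 3.72 and 1.96 on the uninjected side (log2 change 1.34 ± 0.18 SE, adjusted p = 0.00623, and 0.0582 with mouse as a block). Trbc1, its alternative, was under the filter, with 1.78, 0.309, 1.09 and 2.73 against 0 in all 5 uninjected libraries. The injected libraries of Trbc2 were nearly equal, and those of Trbc1 differed between mice. Over all T cell receptor segments, 1 of 25 tested was called and 14 had a positive change (median 0.20). Cd52, a surface peptide of leukocytes and microglia, rose from 7.48 ± 2.73 (SD, n = 5) to 41.7 ± 9.799 (n = 4; log2 change 2.43 ± 0.25 SE, adjusted p = 0.00104).

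Inhibitory receptors and ligands of immunity were among the called genes. Of 13 genes of checkpoints and costimulation 6 were called higher (median 0.71), and 3 were called with mouse as a block. Lag3, a receptor that binds MHC class II and, as known from neurons, alpha-synuclein fibrils, had 16.5, 18.6, 17.9 and 21.3 on the injected side and 7.47, 6.33, 3.78, 3.798 and 4.65 on the uninjected side (log2 change 1.78 ± 0.19 SE, adjusted p = 0.00118). Cd274, the ligand PD-L1, was at 11.9, 7.85, 5.301 and 9.32 against 3.07, 3.14, 2.701, 2.52 and 2.896 (log2 change 1.38 ± 0.19 SE, adjusted p = 0.00641). Both rose without overlap, and Lag3 was highest in mouse 4 and Cd274 in mouse 1. Pdcd1, the receptor of PD-L1, was under the filter, with 1.05, 1.07, 0.241 and 0.584 against 0.121, 0.0686, 0, 0.0738 and 0.

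B and plasma cell RNA differed more between mice than the other lists plotted by mouse. Of 11 genes tested 3 were called higher (median 1.45), 0 with mouse as a block. The summed value of the list was 225, 2554, 386 and 732 on the injected side and between 129.9 and 177 on the uninjected side. Of 268 immunoglobulin segments with values, 34 reached the filter, and 33 of these had a positive change (median 2.24) and 5 were called. Summed over all segments, the injected libraries had 358.2, 6191, 707.4 and 1461 and the uninjected ones 47.95 to 121.8. Segments therefore reached the filter mainly through their injected values, so the count of positive changes is largely set by the filter. The heavy-chain constant genes differed by mouse: Ighg2b, of the IgG2b class, had 6.71, 885, 0.224 and 35.1 on the injected side, and Igha, of the IgA class, had 19.4, 0.773, 32.8 and 33.6. Mouse 2 was the highest for Ighg2b and the lowest for Igha, and on the uninjected side neither exceeded 4.23. Jchain, which joins IgA and IgM into polymers, was at 3.02, 34.95, 9.004 and 15.2 against 1.16, 0.752, 1.497, 0.425 and 0.634 (log2 change 3.12 ± 0.55 SE, adjusted p = 0.0214, and 0.136 with mouse as a block), a call that held in 5 of the 9 fits that each left out 1 library (highest adjusted p = 0.0817). Without the injected library of mouse 2 or 4, or that of the uninjected side of mouse 2, 4 or 5, at most 1 of these genes was called.

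The lists of dopamine, serotonin, GABA, glutamate and general neuronal genes held no gene called in the fit without mouse as a block. Of 25 dopamine neuron genes, 0 were called in limma and 0 had an unadjusted p below 0.05 (median 0.10), and of 18 pan-neuronal genes 0 were called and 1 had an unadjusted p below 0.05 (median 0.00). Over all genes 9.52% had such a p. Th, tyrosine hydroxylase, which starts the synthesis of dopamine, had 531, 603, 473 and 494 on the injected side and 533, 604, 345, 419 and 436 on the uninjected side (log2 change 0.19 ± 0.15 SE, adjusted p = 0.743). Slc6a3, the dopamine transporter, was at 577, 605, 529 and 485 against 572, 655, 399, 458 and 523 (log2 change 0.09 ± 0.13 SE, adjusted p = 0.869). Slc18a2, which fills vesicles with monoamines, was at 141, 122, 127 and 128 against 138, 156, 98.5, 116 and 134 (log2 change 0.03 ± 0.12 SE, adjusted p = 0.961). In all 3 the sides overlapped over most of their range. The 95% interval of the log2 change was -0.13 to 0.51 for Th, -0.20 to 0.38 for Slc6a3 and -0.23 to 0.28 for Slc18a2. Changes within these intervals are compatible with the values, and the intervals are not limits of detection. The size of change that would have been called was not tested. Slc17a7, the vesicular glutamate transporter VGLUT1, had 2.8, 6.14, 4.11 and 13.7 on the injected side and 11.1, 19.7, 16.2, 23.9 and 3.56 on the uninjected side (log2 change -1.09 ± 0.54 SE, adjusted p = 0.582, and 0.0347 with mouse as a block, where it was called). Its injected value was below the uninjected value of the same mouse in all 4 mice, with log2 changes of -1.81, -1.60, -1.86 and -0.78, and the unpaired library of mouse 5 was among the low values.

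Rbfox3, the neuronal nuclear antigen NeuN, had 61.7, 66.1, 65.2 and 60.96 on the injected side and 53.6, 62.3, 73.7, 69.6 and 64.99 on the uninjected side (log2 change -0.02 ± 0.08 SE, adjusted p = 0.955). Of 20 ion channel genes 19 had a negative change, with a median of -0.09 and 0 called, and 3 had an unadjusted p below 0.05, where 2.68% of all genes were lower by that measure. Kcna2, a potassium channel of axons, was at 69.2, 67.2, 70.1 and 70.8 against 70.8, 74.2, 74.8, 81.4 and 78.1 (log2 change -0.13 ± 0.05 SE, adjusted p = 0.3596), with overlap between the sides. Of 15 Parkinson disease genes 0 were called and 1 had an unadjusted p below 0.05 (median 0.03), namely Vps35, of the retromer that sorts endosomal cargo, with -0.11 ± 0.05 SE (adjusted p = 0.467). No gene of neuronal injury, immediate early response, endoplasmic reticulum stress or p53 response was called in limma, of 14, 14, 16 and 13 tested, and 3, 1, 1 and 0 had an unadjusted p below 0.05. Over all genes 9.52% had such a p. The 3 of neuronal injury were all higher: Csf1 by 0.37 ± 0.09 SE (adjusted p = 0.114), Hmox1 by 0.39 ± 0.11 SE (adjusted p = 0.207) and Atf3. The injected libraries of Csf1 lay above all uninjected ones. Fosl2, of the immediate early response, was lower (log2 change -0.26 ± 0.11 SE, adjusted p = 0.491). Atf3, a factor that axon damage induces, was at 1.68, 2.85, 0.642 and 2.61 against 0.938, 0.931, 0.724, 0.748 and 0.682 (log2 change 0.79 ± 0.31 SE, adjusted p = 0.426).

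Other resident cells held few called genes. Of 16 myelin and oligodendrocyte genes 0 were called and 6 had an unadjusted p below 0.05 and were higher (median 0.12), where 6.84% of all genes were. Mbp, myelin basic protein, had 11453, 12090, 10178 and 9518 on the injected side and 9721, 10100, 9438, 9542 and 9607 on the uninjected side (log2 change 0.15 ± 0.07 SE, adjusted p = 0.511). Mice 1 and 2 were the highest on the injected side, and that of mouse 4 lay within the uninjected range. Of 18 endothelial genes Icam1, the adhesion molecule that leukocytes grip on inflamed vessels, was called, at 5.91, 6.96, 4.42 and 5.21 against 2.96, 2.07, 1.96, 2.43 and 1.703 (log2 change 1.17 ± 0.17 SE, adjusted p = 0.00851, and 0.0535 with mouse as a block). The injected values of Icam1 lay clear of the uninjected ones, whereas Vcam1, its counterpart, was not called (log2 change 0.24 ± 0.07 SE, adjusted p = 0.207). Of 15 pericyte and fibroblast genes 0 were called and 4 had an unadjusted p below 0.05 (median 0.09), where 9.52% of all genes did. The 3 with the smallest p, Vtn, Fn1 and Acta2, were higher, with log2 changes of 0.30, 0.36 and 0.44.

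Among smaller groups, Casp1, the protease of the inflammasome, was called higher at 4.12, 4.101, 2.17 and 3.01 against 1.17, 1.29, 1.005, 0.961 and 1.02 (log2 change 1.24 ± 0.20 SE, adjusted p = 0.013, and 0.0682 with mouse as a block), a call lost without the injected library of mouse 1 or 2 (highest adjusted p = 0.0544). Itgb5, an integrin chain that some serotypes of the virus use for entry, was the only one of 11 genes for viral entry called, at 67.4, 70.5, 60.6 and 62 against 55.5, 42.7, 41.5, 38.6 and 44.8 (log2 change 0.55 ± 0.10 SE, adjusted p = 0.02099, and 0.0512 with mouse as a block), and it held in 3 of the 9 fits that each left out 1 library (highest adjusted p = 0.0735). Lgals3bp, a secreted glycoprotein that interferon is known to raise, was the called gene of 19 matrix and scar genes, at 93.2, 63.97, 55.3 and 68.3 against 26.7, 22.8, 24.6, 22.6 and 24.7 (log2 change 1.49 ± 0.13 SE, adjusted p = 0.000546). The sides of Casp1, Itgb5 and Lgals3bp did not overlap. AU040320, which encodes the receptor of the virus, was not called, at 58.2, 58.4, 56.8 and 60.3 against 53.1, 54.3, 52.6, 51.5 and 54.7 (log2 change 0.13 ± 0.04 SE, adjusted p = 0.189), although its injected libraries too lay above the uninjected ones.

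The 2 genes called lower were a pseudogene and a protein-coding gene. Gm49376, annotated as an unprocessed pseudogene at chr12:55275381-55278714, had 2.14, 1.36, 0.884 and 0.961 on the injected side and 2.53, 4.87, 4.43, 4.498 and 5.21 on the uninjected side (log2 change -1.40 ± 0.24 SE, adjusted p = 0.02099, and 0.203 with mouse as a block). 4933434E20Rik, annotated as protein-coding at chr3:90051636-90068347, was at 78.3, 81.8, 77.7 and 77.4 against 95.1, 90.8, 91.8, 88.99 and 88.6 (log2 change -0.21 ± 0.04 SE, adjusted p = 0.0223, and 0.109 with mouse as a block). No injected value of either overlapped the uninjected values, but with 1 library left out the first call held 2 times and the second 3 times among 9 fits (highest adjusted p = 0.0748 and 0.0817). Leaving out the uninjected library of mouse 3, or that of mouse 5, ended with 0 genes called lower.

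The 4 mice differed in which lists had the largest median change. Over the 204 genes the median log2 change between the sides of one mouse was 1.11, 1.11, 0.99 and 1.17 in mice 1 to 4, values that describe genes chosen on these libraries. The largest of the 4 changes fell in mouse 1 for 69 genes, in mouse 2 for 37, in mouse 3 for 27 and in mouse 4 for 71. Mouse 1 led in interferon genes, with a type I list median of 1.65 against 0.89, 0.94 and 0.83 in mice 2 to 4. Mice 2 and 4 led in the damage-linked microglial list, with medians of 0.86 and 0.90 against 0.43 in both mouse 1 and mouse 3. In the B and plasma cell list the medians were 0.67, 2.31, 0.17 and 2.40, again highest in mice 2 and 4. Fc receptors were more even, with 1.29, 0.93, 1.21 and 1.16. Pan-neuronal genes stayed between -0.02 and 0.03 in every mouse, and dopamine neuron genes lay at 0.01, -0.08, 0.31 and 0.21. Without both libraries of mouse 1, the genes called higher were 6 of 10 for MHC class II, 9 of 16 for class I, 10 of 29 and 9 of 20 for the type I and gamma responses, 8 of 16 for complement, 10 of 23 for damage-linked microglia and 3 of 11 for B and plasma cells. The differences between mice were not tested, since each mouse gives 1 library per side, and mouse 1 is also the mouse with pituitary RNA.

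**Figure D4:**
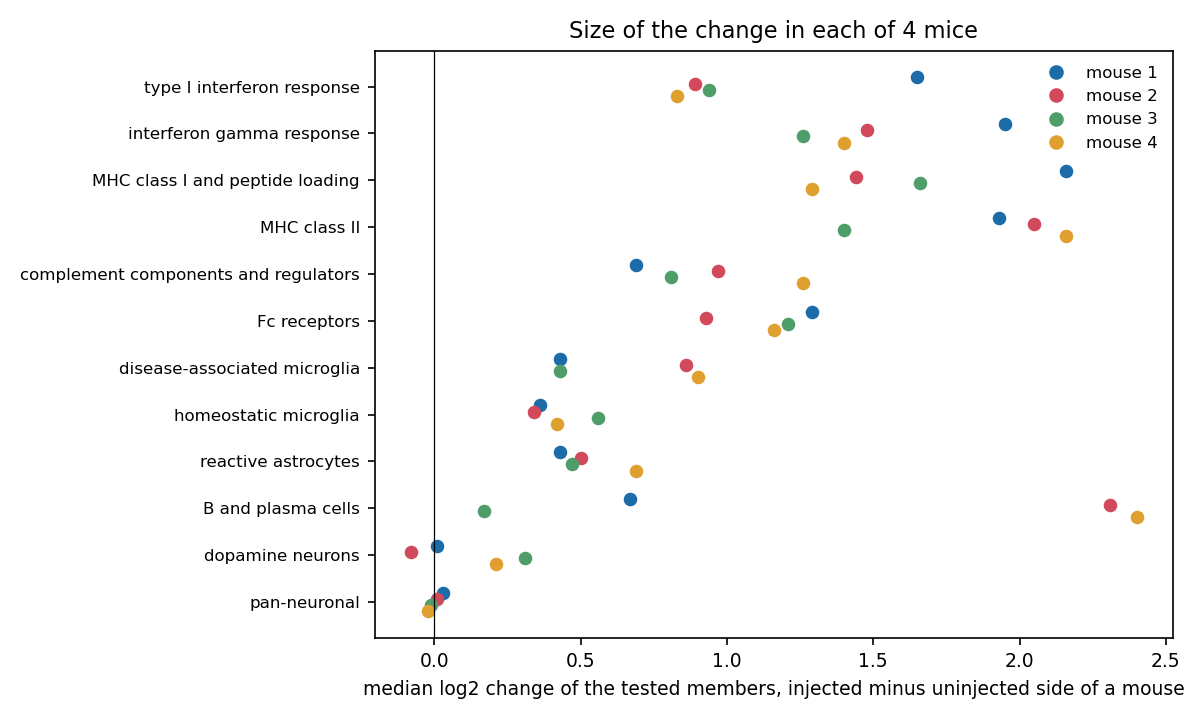
Median log2 change between the sides of each of the 4 mice, for 12 gene lists, with 1 colour per mouse. Mouse 1 lies above the others for the type I interferon and MHC class I lists, mice 2 and 4 for damage-linked microglia and for B and plasma cells, and the 4 mice coincide near 0 for pan-neuronal genes.

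The same genes were examined in the separate mice that received the vector with miR-181, which share no sample with the GFP comparison but differ from it in cargo, dose, sequencer and library set, so that these cannot be told apart. There 678 of 15453 genes were called higher (4.39%). Of the 204 genes higher with GFP, 202 were tested in that set and 187 were called higher there, which is 91.7% of the GFP genes and 27.6% of the miR-181 genes. The median log2 change of these 202 was 1.96 with miR-181 and 1.16 with GFP, and in 191 it was larger with miR-181. The number called in both sets was 102 without the injected library of miR-181 mouse 3, and 78, 74 and 97 without the uninjected library of miR-181 mouse 1, 2 or 3, and it was 114 with mouse as a block in both fits.

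The test of the difference between per-mouse changes, with 4 GFP mice against 3 miR-181 mice, called 5 of 14824 genes (0.0337%) and none of the 202 (lowest adjusted p = 0.0691), though 145 of the 202 had an unadjusted p below 0.05 and 2268 of all genes (15.3%) did. In 141 of those 145 the GFP change was the smaller. The counts of this test rest on few mice: it called 323 genes without miR-181 mouse 1, 1 without any single GFP mouse or miR-181 mouse 2, and 2 without miR-181 mouse 3. The 5 genes called were Lamp5, Entpd6, Chchd10, Gm8430 and Gm21830. Chchd10, a small mitochondrial protein, changed by 0.06 with GFP and -0.80 with miR-181 (difference 0.87 ± 0.10 SE, adjusted p = 0.0456), and Entpd6, an ectonucleotidase, by -0.02 and -0.96 (0.95 ± 0.10, adjusted p = 0.0456). Lamp5, a lysosome-associated membrane protein of neurons, changed by -0.09 and -0.84 (0.82 ± 0.09, adjusted p = 0.0456). Gm8430, annotated as a processed pseudogene, ran the other way and had the smallest adjusted p, with 0.40 and 4.81 (-4.32 ± 0.30, adjusted p = 0.00518). Gm21830 had 0.22 and -3.39 (3.45 ± 0.39, adjusted p = 0.0456), and in the GFP set it was above 0 in the 2 libraries of mouse 1 and listed at 0 in the other 7. None of the 5 was called in the GFP comparison.

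Values of single members in the 2 sets are given side by side. C1qa rose by 1.37 with GFP and 2.19 with miR-181, C4b by 2.04 and 3.15, and Fcgr3 by 1.04 and 1.44. Of the 10 MHC class II genes, 4 had the larger value with GFP, namely Cd74 at 5.14 and 4.79, H2-Eb1 at 4.39 and 4.03, H2-Aa at 5.15 and 4.37 and H2-Ab1 at 4.57 and 4.28. The other 6 had the larger value with miR-181, among them H2-Oa at 2.35 and 3.29 and H2-DMa at 1.16 and 1.63. The difference was not called for H2-Eb1, H2-Aa or H2-Ab1 (adjusted p = 0.763, 0.632 and 0.779). For the dopamine genes the log2 changes were 0.19 with GFP and -0.30 with miR-181 in Th, 0.09 and -0.40 in Slc6a3, and 0.03 and -0.67 in Slc18a2. Of the 15 genes called with GFP and not with miR-181, 12 had a positive change in both, and Chn2, a signalling protein that acts on Rac, had 0.25 and -0.07, a difference that limma did not call (adjusted p = 0.106).

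**Figure D5:**
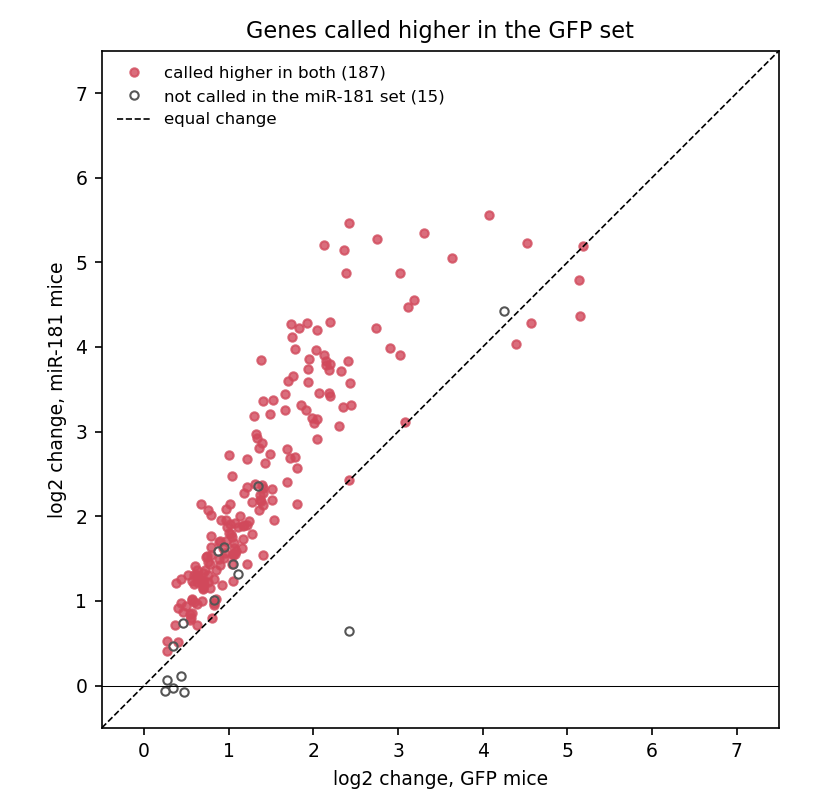
Log2 change of 202 genes called higher with GFP, in the GFP mice on the horizontal axis and in the miR-181 mice on the vertical axis, with the line of equality. The 187 genes also called in the miR-181 set lie mostly above the line, and the MHC class II genes H2-Eb1, H2-Aa, H2-Ab1 and Cd74 lie below it at the right.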

How the data were processed

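The measurements are RNA sequencing (mRNA libraries, stranded kit) of dissected substantia nigra. Per the submitters' processing notes kallisto 0.43.1 and sleuth 0.30.0 were used with GRCm38. The authors deposited 1 table per vector, and the deposited signal is a normalized abundance per gene whose exact unit is not given in the sources used here. The library sums and the non-whole values fit abundances per transcript length divided by a size factor. The 2 tables were normalized separately, GFP libraries were read with 50-base pairs and miR-181 libraries with 75-base pairs, and tests across the tables use only changes within a mouse.

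Repeated rows were left out, 403 for GFP and 396 for miR-181, which kept 36257 and 36264 genes. In the GFP set, genes whose 9 values averaged 1 or more were tested on log2(value + 0.5) with limma 3.58.1 (R 4.3.3), trend on, side as the only term, and Benjamini-Hochberg adjustment over all genes at 0.05. The deposited statistics were not used. Identifiers were matched to GENCODE M21 for 35857 genes, for position and type, and promoters were taken from RefSeq. The labels say that both sides came from one mouse. The correlation of deviations between the sides was 0.192, 0.0947, 0.0177 and 0.122 in mice 1 to 4, and the fit with mouse as a block is an alternative. The best uninjected partner of the injected library was that of the same mouse for mice 1, 2 and 4. For mouse 3 it was the library of mouse 5, so the pairing of mouse 3 rests on its label. Other alternatives changed the pseudocount, the filter, the scaling, the trend and the libraries, and the scripts were tested on simulated data. Motifs and lists were described by counts and medians with no test. Named genes are the 20 largest rises with the same sign in each mouse, all lower genes, the 10 smallest adjusted p, 3 per list by p, and 9 preset genes. The members and lists were chosen with earlier results of these data known. These further genes were named after their values were seen: H2-DMa, H2-Oa, Ciita, Isg15, Irgm1, Irf1, Tlr9, Mavs, C1qb, C3, Itgam, Serping1, Cd55, Cd59a, C2, Cfb, Fcgr4, Fcgr1, Fcgrt, P2ry12, Trem2, Clec7a, Gpnmb, Apoe, Spp1, Igf1, Axl, Ctsb, Lamp1, Serpina3n, Vim, Gbp2, Cx3cl1, Cxcl12, Plac8, Ccr2, Trbc1, Pdcd1, Ighg2b, Igha, Ifng, Ifnb1, Chn2, the 5 genes called in the test of the difference between sets, and the genes of the closing section. Some genes that the rule or lists hold are not reported here.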

Additional observations from a re-analysis of the deposited data

Results flagged for a closer look

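In groups of 4 or 5 libraries, the 9 libraries were searched for a value whose gap to its nearest neighbour was large against the range of its group. Of 170 groups, 22 held one (12.9%). A chance rate of about 1 in 20 would hold for independent groups of normal values. Here lists and their members overlap and some groups hold zeros, so the share cannot be set against that rate. The uninjected library of mouse 1 accounted for 9 of them and the injected library of mouse 1 for 5. Only values are given here, and no explanation was tested.

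The uninjected library of mouse 1 was far above its group in MHC class II, with 10.3 for H2-Aa (others 1.43 to 2.59), 26.0 for Cd74 (others 6.89 to 8.02), 7.62 for H2-Ab1 (others 0.928 to 2.59) and a summed list of 73.9 (others 29.8 to 33.8). The same library had 18734 for Gh, 30138 for Prl and 50166 for the summed pituitary list, where the other uninjected libraries reached at most 3.47, 9.28 and 18.8. It also stood alone in Iglv1 at 0.464 (others 0) and in the summed cell cycle list at 99.4 (others 87.2 to 89.8). The injected library of mouse 1 had 642 for Gh, 1661 for Prl and 2454 for the pituitary list, with at most 1.07, 3.60 and 8.996 in the other injected libraries. It was also far above the others in Cxcl10, with 32.9 (others 5.82 to 10.2), and in the summed type I interferon list, with 778 (others 324 to 399).

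Among other libraries, the uninjected library of mouse 3 had 16.1 for Igkv5-39 (others 1.71 to 5.19), 0.575 for Cxcl9 (others 0 to 0.0795) and 1.38 for Ccl8 (others 0 to 0.306), and was low in the summed interferon signalling list at 252 (others 263 to 265). Ighv1-26 was at 2.08 in the uninjected library of mouse 4 (others 0 to 0.318). The injected library of mouse 4 was high in the summed glutamate neuron list at 427 (others 349.6 to 362), and that of mouse 2 in the summed pan-neuronal list at 9272 (others 8909 to 8954) and the immediate early genes at 169.9 (others 150.2 to 153.5).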

How the results depend on the processing

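The 206 called genes (204 higher, 2 lower) became 136 (135 and 1) with a mean of at least 5 and 124 (122 and 2) with mouse as a replicate block, and between 108 and 255 (108 to 251 higher, 0 to 8 lower) without 1 library at a time. With no filter 7 genes were called lower, with median centring 4, with quantile normalization 4, with array weights 4 and without both libraries of mouse 1 only 1. The calls shared with the miR-181 set (187) became 114 with mouse as a replicate block in both fits and 74 to 194 without 1 miR-181 library at a time, and the 5 genes of the difference test became 1 to 323 without 1 mouse at a time. The other settings tried (pseudocounts of 0.1 and 1, no trend, pituitary genes removed) kept these counts within 1.5 times. The median log2 change over all genes tested, 0.005, was -0.013 with median centring, -0.024 with quantile normalization and -0.008 with pituitary genes removed. Slc17a7 (lower) and Cx3cr1 (higher), which were not called without the block, were called with mouse as a replicate block (adjusted p = 0.0347 for both). Of the 64 called genes that the naming rule gave, 14 were no longer called with mouse as a replicate block and up to 12 without a single library. In these cases the cause was not tested. Depth is unknown, so no limit from counting can be given, and low values carry the pseudocount's weight.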

Other observations

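Among the 204 higher genes, those of the phagocyte NADPH oxidase, which makes superoxide, form a group that the text has not described and that was picked after its values were seen. Cyba, a membrane subunit, had 33.6, 34.3, 23.9 and 35.7 on the injected side and 17.3, 13.9, 16.1, 14.1 and 14.3 on the uninjected side (log2 change 1.04 ± 0.12 SE, adjusted p = 0.00215). Ncf1, a cytosolic subunit, was at 11.6, 10.1, 9.88 and 12.3 against 6.83, 6.14, 6.24, 6.54 and 6.06 (log2 change 0.74 ± 0.09 SE, adjusted p = 0.00262). The sides of both genes did not overlap. Cybb, the catalytic membrane subunit, was at 2.02, 2.53, 0.949 and 4.099 against 0.466, 0.264, 0.191, 0.208 and 0.248 (log2 change 1.80 ± 0.32 SE, adjusted p = 0.0248, and 0.131 with mouse as a block), and Rac2, the small GTPase of the complex in blood cells, rose by 1.81 ± 0.33 SE (adjusted p = 0.0249). With 1 library left out, Cybb was called 2 times and Rac2 4 times among 9 fits (highest adjusted p = 0.0877 and 0.08704). Ncf4 and the proton channel Hvcn1 were also called, with log2 changes of 1.11 and 1.53 and adjusted p = 0.115 and 0.0697 with mouse as a block. Rac1, the widely expressed relative of Rac2, was at 312 ± 9.95 (SD, n = 4) against 305 ± 7.78 (n = 5), with a log2 change of 0.03 ± 0.03 SE, and Nox4, an oxidase of other cell types, had -0.08 ± 0.27 SE. Neither was called.

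Values of 5 further genes follow, picked after their values were seen, of which 3 were called higher. Ptprc, the phosphatase CD45 that all leukocytes carry, had 5.12, 6.23, 4.38 and 5.52 on the injected side and 1.97, 1.36, 2.004, 1.38 and 1.899 on the uninjected side (log2 change 1.39 ± 0.16 SE, adjusted p = 0.00193). Lcp1, an actin-bundling plastin, was at 18.9, 19.8, 16.9 and 15.7 against 10.8, 11.01, 7.99, 11.3 and 11.1 (log2 change 0.75 ± 0.11 SE, adjusted p = 0.00992), and Hcls1, an actin-binding signalling protein, was at 9.81, 10.6, 9.35 and 8.57 against 6.09, 6.05, 4.65, 4.64 and 5.41 (log2 change 0.79 ± 0.11 SE, adjusted p = 0.00686). None of these 3 overlapped between the sides. Coro1a and Was were not called (Coro1a log2 change 0.17 ± 0.07 SE, adjusted p = 0.438; Was log2 change 0.41 ± 0.23 SE, adjusted p = 0.638). In a bulk sample these values do not say which cells carry the RNA.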
